A study of Mus musculus with 8 samples.

Results

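Collagens, the proteases that cut them and the inhibitors of those proteases were followed in 3 groups of Ebf1-/- progenitor cells. The members were all genes of the array named as collagen chains (Col), matrix metalloproteinases (Mmp), their tissue inhibitors (Timp) or Adamts proteases, with Sparc, Fn1 and Col26a1 (Emid2 in the array's annotation) added, each read at its brightest probe. They came to 89 of the 27337 genes on the array, or 166 of 41174 probes. Of them 44 were collagen genes, 21 matrix metalloproteinase genes, 18 Adamts genes and 4 Timp genes.

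EBF1 is a transcription factor that early B-cell development depends on. Cells expressing c-Kit were enriched from the fetal liver of C57Bl/6 mice without functional Ebf1 and plated on OP9 cells, a mouse stromal line used as a feeder layer, with IL-7 (5 ng/ml), and Flt3 ligand and stem cell factor at 10 ng/ml each. They received a pMys-IRES-GFP retrovirus with EBF1-H240A, in which an alanine replaces a histidine (Ebf1-H240A, 3 arrays), with unaltered EBF1 (Ebf1wt, 3 arrays), or with no insert (Empty, 2 arrays), and GFP-positive cells were sorted after 36 h. All 3 groups therefore lacked their own Ebf1, and EBF1 came from a retroviral vector. Whether the replicates were separate cultures or animals is not in the labels, and the p-values rest on the spread between these arrays alone, which may be technical.

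Collagens are built from 3 chains wound into a triple helix. Fibrillar collagens give tissue its strength, fibril-associated collagens decorate those fibrils, and type IV collagen forms the sheet of basement membranes. Matrix metalloproteinases and Adamts proteases cut these proteins, and Timp proteins block the proteases. In bone marrow and fetal liver most matrix is made by stromal cells, while blood progenitors hold on to it through integrins and other receptors.

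On each array 54.8% to 59.8% of spots were well above background and none (0) was saturated. The sorted cells had signal for all 6 progenitor markers (Kit, Flt3, Cd34, Ptprc, Cd48 and Cd93), while of 10 hepatocyte markers 7 were not well above background, Alb and Afp among them. The other 3 were Ahsg, Trf and Hnf4a, and their summed signal was 90 to 92 with Ebf1-H240A, 188 to 221 with Ebf1wt and 588 to 595 with Empty. Ahsg carried most of it, with log2 signals of 5.68, 5.63 and 5.67 with Ebf1-H240A, 7.53, 7.26 and 7.26 with Ebf1wt, and 9.01 and 9.04 with Empty, and Trf was 1.0 lower with Ebf1-H240A and 1.01 lower with Ebf1wt than with Empty. The part of hepatocyte RNA in the results below was not tested. Signals are given as log2 of the processed intensity after scaling every array to the same 75th percentile, and differences between groups are log2 differences from limma, with its standard error (SE). A gene was called at an adjusted p under 0.05 over all 16309 genes tested. Signals of different probes are not comparable as amounts of RNA.

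Of the 89 genes, 59 passed the detection filter (well above background on at least 2 of 8 arrays), 39 of them on all 8 arrays. The 11 fibrillar collagen genes and 4 Timp genes all passed. Of 21 Mmp genes 10 passed, and Mmp9, Mmp3, Mmp7, Mmp12 and the other 7 did not. Of 18 Adamts genes 9 passed, and Adamts1 and 8 others did not. Among the other collagens 10 did not pass, such as Col4a3, Col10a1, Col12a1, Col14a1 and Col19a1. At their brightest probes 28 of the 30 genes left out were well above background on no array, and Adamts3 and Adamts12 on 1 array each.

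Both EBF1 proteins went with higher signals of a limited set of collagen genes and of a few protease genes. With Ebf1-H240A, 22 of the 59 genes were called higher than with Empty, 5 lower and 32 not, where 21.6% of all genes tested were called higher and 23% lower. With Ebf1wt, 15 were called higher than with Empty, 3 lower and 41 not, where 17.2% of all genes were called higher and 21.3% lower. The median log2 difference of the 59 genes was 0.37 with Ebf1-H240A and 0.37 with Ebf1wt, beside medians of 0.00 and -0.04 over all genes. The filter can pass a gene through 1 bright group, which favours genes that differ, so the 39 genes detected on every array are given as well. Of those, 18 were called higher and 4 lower with Ebf1-H240A, against 21.6% and 25.9% of all genes detected on every array, and 11 were called higher and 3 lower with Ebf1wt, against 17.2% and 23.7%. These comparisons share the Empty arrays, so that their likeness is not independent evidence. At 2-fold or more, 13 of the 59 were higher and 3 lower with Ebf1-H240A than with Empty, against 6.64% and 3.41% of all genes tested, and 8 were higher and 0 lower with Ebf1wt, against 5.67% and 2.8%. Without Empty 2 the counts of higher genes were 13 with Ebf1-H240A and 8 with Ebf1wt.

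**Figure D1:**
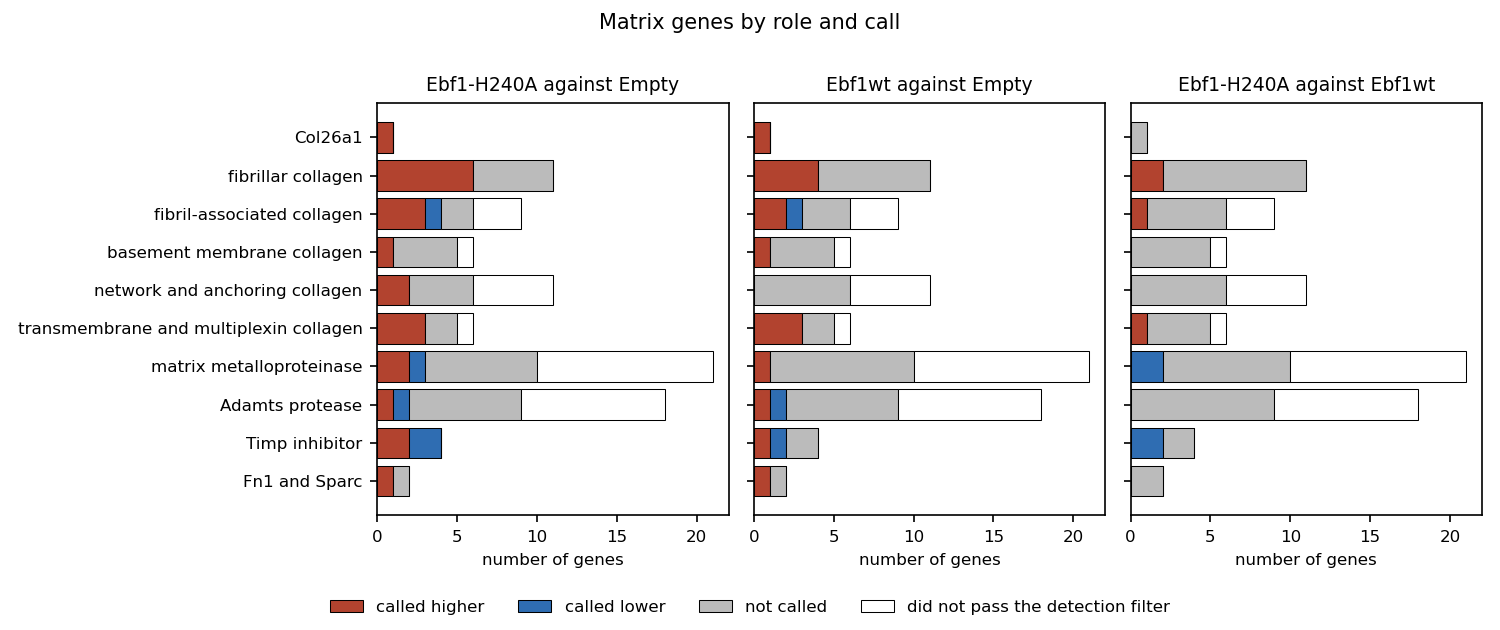
Number of matrix genes by role (rows) that were called higher, called lower, not called or did not pass the detection filter, in each of the 3 comparisons (panels). Ebf1-H240A against Empty has 6 of 11 fibrillar collagen genes called higher (21.6% of all genes tested), and Ebf1wt against Empty has 4 (17.2%). No panel has a fibrillar collagen gene called lower, where 23%, 21.3% and, between the EBF1 proteins, 2.72% of all genes were.

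The largest difference was that of Col26a1, a small collagen with an EMI domain that was first described in testis and ovary. Its probe lies at chr5:137217650-137217709 of mm9, on the minus strand. Its log2 signal was 11.78, 11.78 and 11.76 with Ebf1-H240A and 11.75, 11.63 and 11.48 with Ebf1wt, against 1.05 and 0.12 with Empty, where it was not well above background on either array. All 6 arrays with an EBF1 protein were thus bright and both Empty arrays dark. Against the lowest signal that could be told from background, Col26a1 was at least 625-fold higher with Ebf1-H240A (adjusted p = 7.83e-07) and at least 562-fold higher with Ebf1wt (adjusted p = 1.08e-06). The 2 EBF1 groups differed by 0.15 ± 0.22 (SE, n = 3 each, adjusted p = 0.745). The array has 1 probe for this gene. The call held in all 17 alternatives, a count that, like those for the genes below, leaves out the fits within a slide.

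Col27a1 encodes a fibrillar collagen known from cartilage. Its probe at chr4:62995485-62995544 (mm9, plus strand) read 5.67, 6.03 and 5.80 with Ebf1-H240A and 5.22, 5.14 and 4.94 with Ebf1wt, against 1.13 and 0.75 with Empty. The 3 groups did not overlap, and neither Empty array was well above background. Col27a1 was at least 10.2-fold higher with Ebf1-H240A than with Empty (adjusted p = 3.35e-06) and at least 6.13-fold higher with Ebf1wt (adjusted p = 6.58e-06). All 3 kept probes of the gene had the same sign. The step between the 2 EBF1 proteins, 0.73 ± 0.14 (adjusted p = 0.0304), was called in 6 of 17 alternatives, and it was lost without any 1 of the 6 EBF1 arrays (adjusted p 0.0598 to 0.0890). With normexp background correction the difference from Empty shrank to 0.88 with Ebf1-H240A and 0.57 with Ebf1wt, both still called.

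Col5a3 and Col16a1 separated the 2 EBF1 proteins. Col5a3 encodes a chain of type V collagen, which sets the width of collagen fibrils. Its probe at chr9:20574592-20574651 (mm9) read 7.14, 7.34 and 7.49 with Ebf1-H240A, 5.33, 5.19 and 5.61 with Ebf1wt, and 3.51 and 3.26 with Empty. The signal was high with Ebf1-H240A, intermediate with Ebf1wt and low with Empty, with no overlap. The differences were 3.93 ± 0.16 for Ebf1-H240A against Empty (adjusted p = 7.54e-06), 1.99 ± 0.16 for Ebf1wt against Empty (adjusted p = 0.000161) and 1.95 ± 0.14 for Ebf1-H240A against Ebf1wt (adjusted p = 0.00147). All of these held in the 18 alternatives, with 1.68, 0.61 and 1.07 under normexp correction. They rest on 1 probe, as the other probe of Col5a3 was well above background on no array.

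Col16a1 encodes a fibril-associated collagen. Its probe at chr4:129776345-129776404 (mm9) read 7.66, 8.25 and 7.83 with Ebf1-H240A, 4.71, 4.39 and 4.78 with Ebf1wt, and 3.79 and 3.36 with Empty. The Ebf1-H240A arrays lay far above the other 5, and the Ebf1wt arrays a little above Empty. The gene's other probe was well above background on no array and showed no such rise (means 0.89, 1.14 and 1.26), so the result rests on 1 probe. Col16a1 was 4.34 ± 0.22 higher than Empty with Ebf1-H240A (adjusted p = 1.63e-05) and 3.28 ± 0.19 higher than with Ebf1wt (adjusted p = 0.000807), and both calls held in all 18 alternatives. The smaller rise with Ebf1wt over Empty, 1.05 ± 0.22 (adjusted p = 0.00919), was not called with normexp correction (0.27, adjusted p = 0.174), in the authors' deposited value table (0.36, adjusted p = 0.185) or without Empty 2 (0.84, adjusted p = 0.0632).

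Col17a1, whose product spans the membrane in the hemidesmosomes of skin, showed the same order. Its probe at chr19:47720894-47720953 (mm9) read 4.50, 4.49 and 4.73 with Ebf1-H240A, 3.14, 2.59 and 2.40 with Ebf1wt, and 1.89 and 1.73 with Empty. It was well above background on all 3 Ebf1-H240A arrays, 1 of 3 Ebf1wt arrays and neither Empty array. Col17a1 was at least 4.25-fold higher with Ebf1-H240A than with Empty (adjusted p = 0.000106). It was 1.86 ± 0.19 higher with Ebf1-H240A than with Ebf1wt (adjusted p = 0.00446), a call lost only under normexp correction among 17 alternatives (0.35, adjusted p = 0.0700). For Ebf1wt against Empty the difference was 0.90 ± 0.21 (adjusted p = 0.0150), near the lowest detectable signal, so no bound is given. That call was lost with normexp correction (0.17, adjusted p = 0.333), in the authors' deposited value table (0.23, adjusted p = 0.168) and with the raised floor (0.47, adjusted p = 0.189). It was also lost without Empty 1 (0.98) or Empty 2 (0.83). On no array did the gene's other probe rise well above background.

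**Figure D2:**
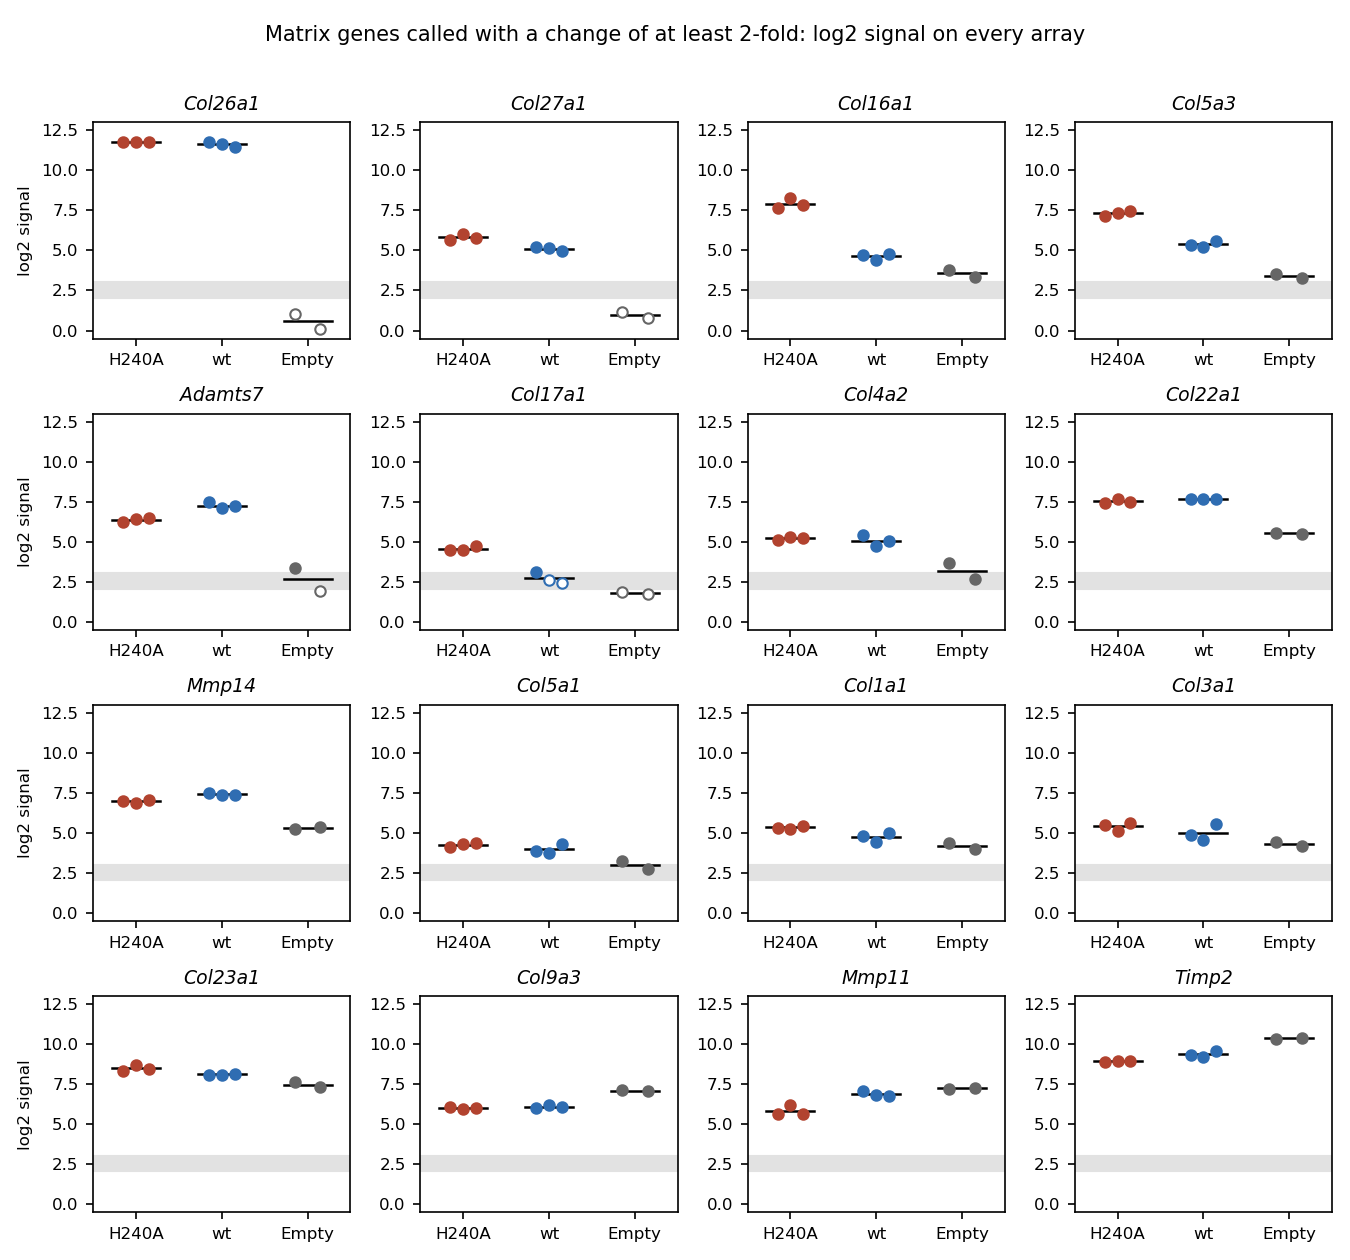
Log2 signal of the 16 matrix genes called with a change of at least 2-fold in some comparison, 1 point per array, with Ebf1-H240A (n = 3), Ebf1wt (n = 3) and Empty (n = 2) from left to right and a bar at each group mean. Open points were not well above background, and the grey band spans the lowest signals well above background on the arrays (2.06 to 3.03). Col26a1 and Col27a1 lie below that band with Empty and above it with either EBF1 protein, and Col5a3 and Col16a1 are highest with Ebf1-H240A.

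Col22a1 and Col4a2 rose with both proteins. Col22a1 encodes a fibril-associated collagen of tissue junctions. Its log2 signal was 7.40, 7.69 and 7.51 with Ebf1-H240A and 7.65, 7.67 and 7.64 with Ebf1wt, against 5.54 and 5.50 with Empty. The EBF1 groups overlapped each other and both lay above Empty. The differences from Empty were 2.01 ± 0.09 with Ebf1-H240A (adjusted p = 1.02e-05) and 2.13 ± 0.09 with Ebf1wt (adjusted p = 9.18e-06), and Ebf1-H240A differed from Ebf1wt by -0.12 ± 0.08 (adjusted p = 0.426).

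Col4a2 encodes a basement membrane chain that is wound with the product of Col4a1, and the 2 genes lie head to head. Col4a2 read 5.11, 5.27 and 5.26 with Ebf1-H240A and 5.43, 4.71 and 5.06 with Ebf1wt, against 3.69 and 2.69 with Empty. It was 2.03 ± 0.31 higher with Ebf1-H240A (adjusted p = 0.00217) and 1.88 ± 0.31 higher with Ebf1wt (adjusted p = 0.00374), and its second probe, not well above background with Empty, was at least 2.92-fold higher with Ebf1-H240A and at least 3.06-fold higher with Ebf1wt. Empty 2 lay well below Empty 1, and within slides 1 and 2 the difference was 1.5 and 2.57 with Ebf1-H240A and 1.02 and 2.56 with Ebf1wt. Col4a1 had overlapping groups, 4.21, 4.10 and 3.88 with Ebf1-H240A, 3.51, 3.82 and 4.36 with Ebf1wt, and 3.92 and 2.71 with Empty, and was not called (0.74 ± 0.38, adjusted p = 0.159, and 0.58 ± 0.38, adjusted p = 0.276). Col4a4, a type IV chain of other basement membranes, had log2 signals of 8.42 to 8.76 with Ebf1-H240A, 8.35 to 8.56 with Ebf1wt, and 8.67 and 8.33 with Empty, and was not called in any comparison (0 of 3). The other probe of Col4a4 was well above background on no array, so its bright signal rests on 1 probe.

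Col1a1, Col3a1 and Col5a1 belong to the main collagens of connective tissue fibrils and had smaller differences. Col1a1, a chain of type I collagen, read 5.34, 5.26 and 5.44 with Ebf1-H240A and 4.81, 4.41 and 5.00 with Ebf1wt, against 4.37 and 4.00 with Empty. The Ebf1-H240A arrays lay above all others, and the difference from Empty was 1.16 ± 0.19 with Ebf1-H240A (adjusted p = 0.00265) and 0.55 ± 0.19 with Ebf1wt (adjusted p = 0.0566). The last of these was called in 3 alternatives, without Ebf1wt 2 among them (0.71, adjusted p = 0.0162). Ebf1-H240A exceeded Ebf1wt by 0.61 ± 0.17, which did not pass (adjusted p = 0.0847). Col1a2, the partner chain, had 7.40, 7.66 and 7.67 with Ebf1-H240A, 7.50, 7.19 and 7.77 with Ebf1wt, and 7.30 and 6.92 with Empty, and its differences from Empty of 0.47 ± 0.19 and 0.37 ± 0.19 were not called (adjusted p = 0.0914 and 0.174).

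Col3a1, the chain of type III collagen, read 5.50, 5.10 and 5.63 with Ebf1-H240A, 4.85, 4.54 and 5.55 with Ebf1wt, and 4.46 and 4.19 with Empty. Ebf1wt 3 lay among the Ebf1-H240A arrays and apart from Ebf1wt 1 and 2. Col3a1 was 1.09 ± 0.30 higher with Ebf1-H240A than with Empty (adjusted p = 0.0243) and 0.65 ± 0.30 with Ebf1wt (adjusted p = 0.132). The call with Ebf1-H240A held in 13 of 18 alternatives. Its losses included the fits without Empty 1, Empty 2, Ebf1-H240A 1 (adjusted p = 0.0654) or Ebf1-H240A 3 (0.0683). Col5a1, another type V chain, read 4.13, 4.33 and 4.37 with Ebf1-H240A, 3.88, 3.78 and 4.32 with Ebf1wt, and 3.28 and 2.73 with Empty. It was 1.28 ± 0.21 higher than Empty with Ebf1-H240A (adjusted p = 0.00308) and 0.99 ± 0.21 with Ebf1wt (adjusted p = 0.0108), but its second probe gave -0.08 and -0.26. With Ebf1wt the call did not survive averaging the probes (0.37, adjusted p = 0.0594), normexp correction (0.25, adjusted p = 0.121) or leaving out Empty 2 (0.72, adjusted p = 0.0653).

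Col23a1, a transmembrane collagen, read 8.35, 8.68 and 8.44 with Ebf1-H240A, 8.07, 8.10 and 8.17 with Ebf1wt, and 7.63 and 7.33 with Empty. The 3 groups did not overlap. It was 1.01 ± 0.13 higher than Empty with Ebf1-H240A (adjusted p = 0.000893) and 0.63 ± 0.13 with Ebf1wt (adjusted p = 0.00827), where the call was lost without Empty 2 (0.48, adjusted p = 0.0535). The step between the EBF1 proteins, 0.38 ± 0.11, was not called (adjusted p = 0.105). Both kept probes had these signs.

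Col9a3, a chain of the fibril-associated type IX collagen of cartilage, was the collagen gene that fell. It read 6.07, 5.97 and 5.99 with Ebf1-H240A and 6.03, 6.20 and 6.10 with Ebf1wt, against 7.14 and 7.06 with Empty, so that all 6 EBF1 arrays lay below both Empty arrays. The differences were -1.09 ± 0.07 with Ebf1-H240A (adjusted p = 5.85e-05) and -0.99 ± 0.07 with Ebf1wt (adjusted p = 0.000113), in all 18 alternatives. Of its partner chains, Col9a2 was not called (-0.33 ± 0.16 and -0.15 ± 0.16), and Col9a1 was well above background on only 2 arrays. Col11a2, a fibrillar chain of cartilage, read 8.78 to 9.05 with Ebf1-H240A, 8.43 to 8.80 with Ebf1wt, and 8.53 and 8.64 with Empty, and was not called, with 0.32 ± 0.13 for Ebf1-H240A against Empty (adjusted p = 0.0829).

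By role, 16 of 34 measured collagen genes were called higher and 1 lower with Ebf1-H240A, beside 21.6% and 23% of all genes tested, and 11 higher and 1 lower with Ebf1wt, beside 17.2% and 21.3%. The called genes not described above had differences under 2-fold. They were Col18a1 (0.75 with Ebf1-H240A and 0.74 with Ebf1wt) and Col2a1 (0.46 with each), and, called with Ebf1-H240A, Col20a1 (0.52), Col6a2 (0.65) and Col7a1 (0.36), which did not pass with Ebf1wt (0.44, 0.38 and 0.21) or between the proteins. Each of these calls was lost in 5 or more alternatives. Of the 6 measured network and anchoring collagens, which form beaded filaments and skin anchors, none (0) was called with Ebf1wt.

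**Figure D3:**
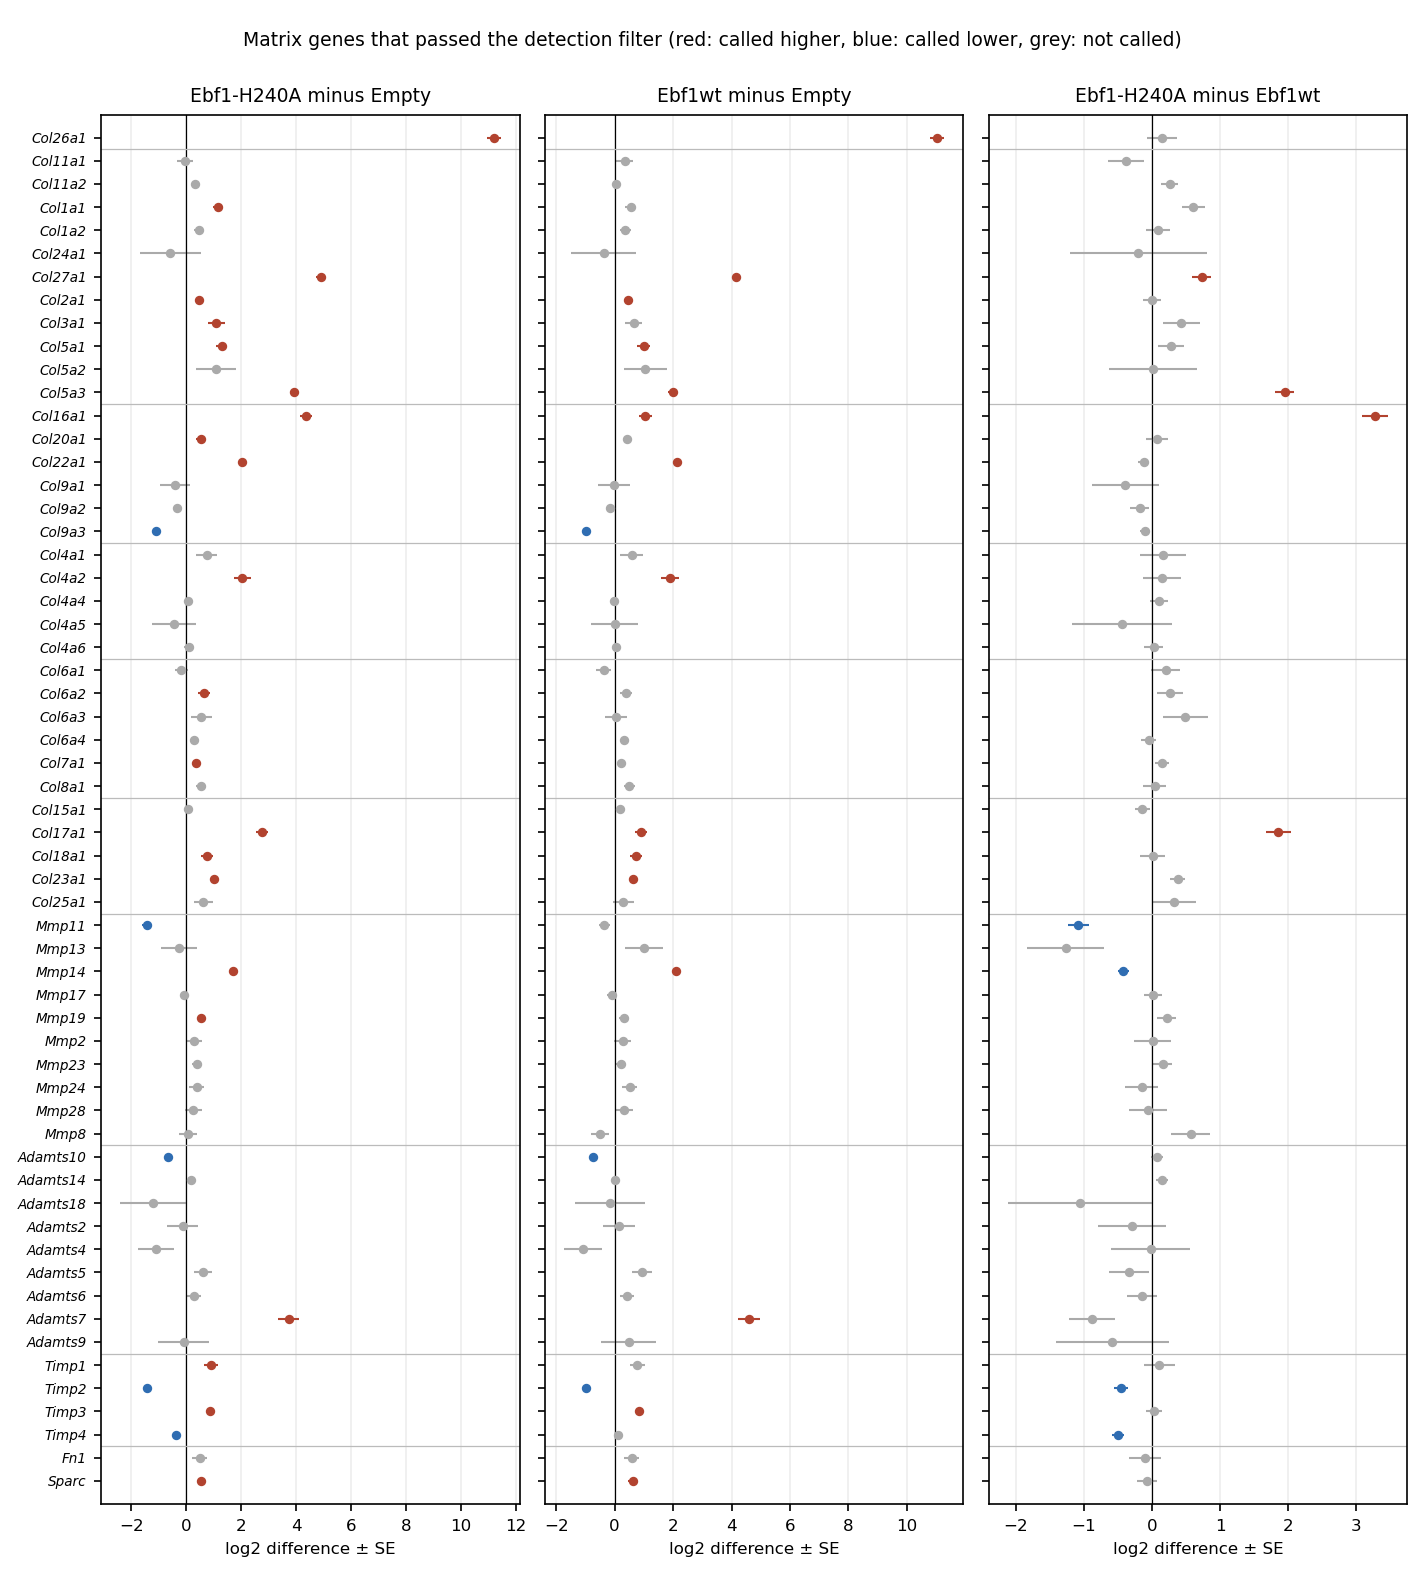
Log2 difference ± SE of the 59 matrix genes that passed the detection filter, grouped by role from top to bottom, for Ebf1-H240A minus Empty, Ebf1wt minus Empty and Ebf1-H240A minus Ebf1wt (the axes differ). Col26a1, not well above background with Empty, lies at 11.19 and 11.03 against it and at 0.15 between the EBF1 proteins, and Col16a1 has the largest difference between them (3.28).

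Among the proteases, Adamts7 and Mmp14 rose. Adamts7 is a secreted protease known to cut cartilage oligomeric matrix protein. Its probe at chr9:90094702-90094761 (mm9) read 6.21, 6.41 and 6.51 with Ebf1-H240A and 7.45, 7.10 and 7.21 with Ebf1wt, against 3.38 and 1.93 with Empty, where 1 of 2 arrays was well above background. All EBF1 arrays lay above Empty, and the Ebf1wt arrays lay above those with Ebf1-H240A. The differences from Empty were 3.72 ± 0.38 with Ebf1-H240A (adjusted p = 0.000368) and 4.6 ± 0.38 with Ebf1wt (adjusted p = 0.000180), and the second probe, not well above background with Empty, was at least 3.42-fold higher with Ebf1-H240A and at least 7.06-fold higher with Ebf1wt. The difference between the proteins, -0.88 ± 0.34 for Ebf1-H240A against Ebf1wt, was not called (adjusted p = 0.186). When only these 2 groups entered the fit, the same difference was called (adjusted p = 0.0222). Leaving out either Empty array amounts to this same fit between the proteins and adds no further support. The difference was also called with normexp correction (-0.55, adjusted p = 0.00399) and in the authors' deposited value table (-0.77, adjusted p = 0.00966). No other Adamts gene was called higher (1 of 9 with each protein, beside 21.6% of all genes tested with Ebf1-H240A and 17.2% with Ebf1wt).

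Mmp14 is the membrane-anchored metalloproteinase that cuts fibrillar collagen at the cell surface and activates the Mmp2 precursor. Its probe at chr14:55059969-55060028 (mm9) read 7.01, 6.88 and 7.07 with Ebf1-H240A and 7.48, 7.40 and 7.35 with Ebf1wt, against 5.23 and 5.39 with Empty. The groups did not overlap, and the highest signals were those with Ebf1wt. Mmp14 was 1.68 ± 0.09 higher than Empty with Ebf1-H240A (adjusted p = 1.78e-05) and 2.10 ± 0.09 with Ebf1wt (adjusted p = 8.76e-06). The second, dimmer probe gave 0.31 and 1.07. Between the EBF1 proteins the difference was -0.42 ± 0.08 (adjusted p = 0.0259), called in 7 of 18 alternatives and lost without any 1 of the 6 EBF1 arrays (adjusted p 0.0516 to 0.0944). Mmp2 itself had overlapping groups and was not called (0.28 ± 0.30 and 0.27 ± 0.30).

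Mmp11, a secreted metalloproteinase that furin activates inside the cell, fell with Ebf1-H240A. Its log2 signal was 5.67, 6.18 and 5.63 with Ebf1-H240A, 7.08, 6.85 and 6.79 with Ebf1wt, and 7.23 and 7.29 with Empty. The Ebf1-H240A arrays lay below all others. Mmp11 was -1.44 ± 0.18 against Empty (adjusted p = 0.000814, called in all 18 alternatives) and -1.08 ± 0.16 against Ebf1wt (adjusted p = 0.0134). The difference from Ebf1wt no longer passed without Ebf1wt 1 (-1.0, adjusted p = 0.0559) or Ebf1-H240A 1 (-1.0, adjusted p = 0.0523). For Ebf1wt against Empty the difference was -0.35 ± 0.18 (adjusted p = 0.162). Adamts10, which binds fibrillin microfibrils, read 7.73, 8.0 and 7.68 with Ebf1-H240A and 7.67, 7.75 and 7.76 with Ebf1wt, against 8.42 and 8.54 with Empty. It fell with both, by 0.68 ± 0.10 with Ebf1-H240A (adjusted p = 0.00219) and by 0.75 ± 0.10 with Ebf1wt (adjusted p = 0.00175), and its 3 probes had the same sign. Mmp19 was higher with Ebf1-H240A than with Empty (0.53 ± 0.15, adjusted p = 0.0278, called in 9 of 18 alternatives) and did not pass with Ebf1wt (0.31 ± 0.15, adjusted p = 0.161). Of 10 measured Mmp genes, 2 were called higher and 1 lower with Ebf1-H240A, beside 21.6% and 23% of all genes tested. With Ebf1wt 1 was called higher and 0 lower, beside 17.2% and 21.3%. The counts of higher Mmp genes thus do not exceed the shares over all genes.

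The 4 inhibitor genes did not move together. Timp2 blocks metalloproteinases and also helps Mmp14 to activate the Mmp2 precursor. Timp2 read 8.88, 8.95 and 8.97 with Ebf1-H240A, 9.35, 9.21 and 9.58 with Ebf1wt, and 10.34 and 10.40 with Empty, with no overlap between the groups. Its signal fell by 1.44 ± 0.11 with Ebf1-H240A (adjusted p = 9.74e-05) and by 0.99 ± 0.11 with Ebf1wt (adjusted p = 0.000614) relative to Empty, in all 18 alternatives. Between the proteins it differed by -0.45 ± 0.10 (adjusted p = 0.0445), called in 7 of 18 alternatives.

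Timp3, which stays bound to the matrix and also blocks Adamts proteases, rose. It read 8.29, 8.51 and 8.62 with Ebf1-H240A and 8.28, 8.48 and 8.57 with Ebf1wt, against 7.71 and 7.50 with Empty. The EBF1 groups overlapped each other and lay above Empty, by 0.87 ± 0.13 with Ebf1-H240A (adjusted p = 0.00214) and 0.84 ± 0.13 with Ebf1wt (adjusted p = 0.00307), in all 18 alternatives. Timp1, a broad secreted inhibitor, read 9.15, 9.11 and 9.47 with Ebf1-H240A, 8.80, 9.01 and 9.59 with Ebf1wt, and 8.61 and 8.10 with Empty. Its differences from Empty, 0.89 ± 0.26 (adjusted p = 0.0302) and 0.78 ± 0.26 (adjusted p = 0.0539), lay on both sides of the threshold. The first was called in 13 of 18 alternatives. Its losses included the fits without Empty 2 (0.64) or any 1 of the Ebf1-H240A arrays (adjusted p 0.0515 to 0.0819). The second was called in 7 alternatives.

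Timp4 was dim, with 3.0, 2.95 and 3.21 with Ebf1-H240A, 3.63, 3.47 and 3.55 with Ebf1wt, and 3.47 and 3.40 with Empty. It was called lower with Ebf1-H240A than with Empty (-0.39 ± 0.10, adjusted p = 0.0160) and than with Ebf1wt (-0.50 ± 0.09, adjusted p = 0.0220). The Ebf1-H240A arrays lay below all others, and 2 of 3 were well above background. With normexp correction the first of these differences turned to 0.06 (adjusted p = 0.742) and the second shrank to -0.04, which was not called. Of 17 alternatives, the first was called in 12 and the second in 8.

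Ebf1-H240A and Ebf1wt, compared directly, differed in 8 of the 59 genes. Col16a1, Col5a3, Col17a1 and Col27a1 were called higher with Ebf1-H240A and Mmp11, Mmp14, Timp2 and Timp4 lower, where 3.64% of all genes tested were called higher and 2.72% lower. Among the 39 genes detected on every array, 2 were called higher and 3 lower, against 3.58% and 2.91%. At 2-fold or more 3 of the 59 were higher and 1 lower, against 0.662% and 0.417% of all genes tested. No protease or inhibitor gene was called higher with Ebf1-H240A than with Ebf1wt (0 of 23 measured), and no collagen gene was called lower (0 of 34). These 2 counts lie near the shares over all genes, 3.64% and 2.72%. The 4 lower calls fell to 0 without Ebf1wt 1 or Ebf1-H240A 1, to 1 without Ebf1wt 3 or Ebf1-H240A 2, and to 2 without Ebf1wt 2 or Ebf1-H240A 3. Other marker lists also differed between the EBF1 groups. The summed signal of 6 neutrophil markers was 2270 to 2763 with Ebf1-H240A and 1556 to 1637 with Ebf1wt, and that of 9 B-lineage markers was 29370 to 33262 with Ebf1-H240A and 55513 to 62316 with Ebf1wt. Their part in these calls was not tested. This comparison uses the same EBF1 arrays as the comparisons with Empty.

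Promoter sequences are shown for 4 genes that changed at least 4-fold at their fitted difference, because EBF proteins bind a palindromic motif and the promoters differ in whether they hold it. The RefSeq promoter table (GRCm38.p6) held 65 of the 89 genes, and the 250 bases before the start of each were searched. The core of the motif was spelled CCCNNGGG, and the full motif was that core with a T before it and an A after it. Each full match thus holds a core match, and both read the same on either strand. The full motif was found in 0.779% and the core in 11.8% of all 32851 promoters in the table. Among the 65 genes, Mmp14 alone held the full motif, and 12 held the core. In the sequences below, 5′ to 3′ on the gene's strand, capitals mark the full motif in Mmp14 and the core in Col17a1 and Col4a2, and Col27a1, with none, is shown beside them.
Mmp14: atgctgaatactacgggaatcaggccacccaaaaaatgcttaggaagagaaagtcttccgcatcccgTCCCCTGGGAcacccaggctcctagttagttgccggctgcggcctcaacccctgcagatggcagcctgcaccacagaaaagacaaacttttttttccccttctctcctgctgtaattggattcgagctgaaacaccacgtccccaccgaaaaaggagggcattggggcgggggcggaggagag
Col17a1: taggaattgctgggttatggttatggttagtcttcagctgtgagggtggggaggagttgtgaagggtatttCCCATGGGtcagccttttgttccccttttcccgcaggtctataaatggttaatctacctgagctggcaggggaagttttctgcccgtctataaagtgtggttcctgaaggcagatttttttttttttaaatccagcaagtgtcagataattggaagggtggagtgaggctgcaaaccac
Col4a2: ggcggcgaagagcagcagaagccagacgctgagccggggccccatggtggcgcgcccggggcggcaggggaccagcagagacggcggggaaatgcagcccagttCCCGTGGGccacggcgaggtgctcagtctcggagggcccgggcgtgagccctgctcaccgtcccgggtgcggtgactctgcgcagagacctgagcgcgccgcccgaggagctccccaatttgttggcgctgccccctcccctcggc
Col27a1: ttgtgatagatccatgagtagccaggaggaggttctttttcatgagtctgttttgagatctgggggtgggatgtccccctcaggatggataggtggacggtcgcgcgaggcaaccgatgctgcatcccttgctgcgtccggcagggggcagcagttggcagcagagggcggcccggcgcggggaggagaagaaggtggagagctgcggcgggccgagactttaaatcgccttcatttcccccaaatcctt

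These are chr14:54431348-54431597 on the plus strand for Mmp14, chr19:47692043-47692292 on the minus strand for Col17a1, chr8:11312555-11312804 on the plus strand for Col4a2 and chr4:63215162-63215411 on the plus strand for Col27a1. The motif begins 183 bases before the start of Mmp14, and the core begins 179 bases before the start of Col17a1 and 146 before that of Col4a2. Mmp14 was higher with Ebf1wt, Col17a1 was higher with Ebf1-H240A, and Col4a2 had overlapping EBF1 groups, so that genes with these letters did not share an order of the 2 proteins. Col16a1 and Col5a3 held neither motif in this window. A match is no evidence of binding, and a missing match concerns this window only.

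Other genes of the same biology were counted from 4 lists. Of 18 measured genes that make and link collagen, 5 were called higher and 4 lower with Ebf1-H240A, beside 21.6% and 23% of all genes tested, and 3 higher and 3 lower with Ebf1wt, beside 17.2% and 21.3%. These counts lie near the shares over all genes. Loxl4, a lysyl oxidase that crosslinks collagen, was well above background on 3 Ebf1-H240A arrays, 1 of 3 Ebf1wt arrays and neither Empty array. It was at least 1.78-fold higher with Ebf1-H240A than with Empty (adjusted p = 0.000144). With Ebf1wt it was called higher (adjusted p = 0.000632), but its signals of 2.38, 2.73 and 2.78 lay near the lowest detectable signal, so no bound is given. Loxl2, of the same family, fell by 1.18 ± 0.20 with Ebf1-H240A and by 0.75 ± 0.20 with Ebf1wt. P4ha2, a prolyl hydroxylase subunit, fell by 0.31 ± 0.08 and by 0.75 ± 0.08, and Crtap, which acts with prolyl 3-hydroxylase, by 0.84 ± 0.08 and by 0.63 ± 0.08.

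Of 32 other matrix proteins 18 were called higher and 1 lower with Ebf1-H240A, beside 21.6% and 23% of all genes tested, and 16 higher and 1 lower with Ebf1wt, beside 17.2% and 21.3%. The median difference was 0.62 with each. Tnxb, which encodes tenascin X, was at least 34.8-fold higher with Ebf1-H240A and at least 17.6-fold with Ebf1wt than with Empty, and 0.98 ± 0.21 higher with Ebf1-H240A than with Ebf1wt (adjusted p = 0.0408). Nid2, a basement membrane linker, rose by 2.95 ± 0.21 and by 3.02 ± 0.21. Emilin1, an elastic fibre protein, fell by 0.42 ± 0.11 with each. Between the EBF1 proteins 4 of the 32 were higher with Ebf1-H240A, such as Nid1 (0.81 ± 0.15) and Agrn (0.69 ± 0.09), and Hspg2, which encodes perlecan, was lower (-0.88 ± 0.13, adjusted p = 0.0143).

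Of 14 genes that control proteases, 5 were called higher and 1 lower with Ebf1-H240A, beside 21.6% and 23% of all genes tested, and 4 higher and 1 lower with Ebf1wt, beside 17.2% and 21.3%. Adamtsl2, an Adamts-like protein without a protease domain, read 9.99, 10.38 and 10.28 with Ebf1-H240A and 10.39, 10.14 and 10.46 with Ebf1wt, against 5.23 and 4.85 with Empty. It rose by 5.17 ± 0.17 with Ebf1-H240A (adjusted p = 3.45e-06) and by 5.28 ± 0.17 with Ebf1wt (adjusted p = 3.33e-06). Plaur, the urokinase receptor gene, rose by 3.24 ± 0.10 and by 2.80 ± 0.10. Reck, a membrane-bound inhibitor of metalloproteinases, fell by 1.31 ± 0.06 with Ebf1-H240A and by 1.11 ± 0.06 with Ebf1wt.

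Of 19 receptors for matrix, 8 were called higher and 6 lower with Ebf1-H240A, beside 21.6% and 23% of all genes tested, and 7 higher and 7 lower with Ebf1wt, beside 17.2% and 21.3%. The collagen receptor gene Ddr2 rose by 1.12 ± 0.19 with Ebf1-H240A and by 1.04 ± 0.19 with Ebf1wt, and the laminin receptor gene Itga6 by 0.97 ± 0.07 and by 1.01 ± 0.07. Lair1, an inhibitory collagen receptor of leukocytes, fell by 1.13 ± 0.15 and by 1.27 ± 0.15. The syndecan gene Sdc1 read 9.49, 9.48 and 9.58 with Ebf1-H240A, 8.57, 8.70 and 8.63 with Ebf1wt, and 9.63 and 9.33 with Empty. It fell with Ebf1wt (-0.85 ± 0.10, adjusted p = 0.000814) and was not called with Ebf1-H240A (0.03 ± 0.10, adjusted p = 0.811), and the difference between the proteins was called (0.89 ± 0.09, adjusted p = 0.00432).

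Stromal cells make many of the collagens above, and the cells were sorted from OP9 co-cultures. Of 20 stromal markers 12 were measured, and Pdgfra, Kitl, Lum, Postn, Twist1, Twist2, Lepr and Cdh2 were not well above background. The summed signal of the 12 was 26459 to 28417 with Ebf1-H240A, 27068 to 33849 with Ebf1wt, where Ebf1wt 3 was highest, and 23951 to 24002 with Empty. Thy1 and Acta2 carried most of this sum, with log2 signals of 13.43 to 14.23 and 13.06 to 13.62 over all arrays. Thy1 was called in no comparison, so the sum says little about the other markers. Of the 12, 5 were called higher with Ebf1-H240A, beside 21.6% of all genes tested, and 3 with Ebf1wt, beside 17.2%, and none (0) was lower. Pdgfrb rose by 1.95 and by 1.54, Csf1 by 1.42 and by 1.28 and Cxcl12 by 0.59 with each. Dcn differed by -1.26 and -0.11, Prrx1 by -0.26 and -0.06 and Cdh11 by -0.12 and -0.20, and none of these was called. Of the 59 matrix genes, 32 were highest of the 3 Ebf1wt arrays on Ebf1wt 3 and 14 lowest, such as Col26a1, Col27a1, Col17a1, Mmp14 and Col22a1. On that array the signals of Col1a1, Col1a2, Col3a1, Col5a1, Col6a1, Col6a2, Col6a3, Fn1, Sparc, Timp1 and Timp3, 11 connective tissue genes chosen after their values were seen, were all the highest. Of the other 48 genes, 21 were highest and 14 lowest on it. Without that array 14 matrix genes were called higher and 4 lower with Ebf1wt than with Empty. In such bulk samples more cells of a type and more RNA per cell cannot be told apart, and the part of stromal RNA in the collagen differences was not tested.

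Fn1, which encodes the fibronectin that cells attach to, read 5.56, 6.05 and 5.83 with Ebf1-H240A, 5.87, 5.55 and 6.32 with Ebf1wt, and 5.62 and 5.05 with Empty. The groups overlapped, and the differences from Empty, 0.48 ± 0.27 and 0.58 ± 0.27, were not called (adjusted p = 0.201 and 0.142). Sparc, a collagen-binding glycoprotein, read 6.83, 6.87 and 7.03 with Ebf1-H240A and 6.75, 6.93 and 7.25 with Ebf1wt, against 6.5 and 6.21 with Empty. It was 0.55 ± 0.16 higher with Ebf1-H240A (adjusted p = 0.0301) and 0.62 ± 0.16 with Ebf1wt (adjusted p = 0.0226), and both calls were lost without Empty 2 (0.41, adjusted p = 0.174, and 0.48, adjusted p = 0.135). The Ebf1-H240A call was also lost without any 1 of the Ebf1-H240A arrays (adjusted p 0.0541 to 0.0813), and the Ebf1wt call without Ebf1wt 2 (adjusted p = 0.0506). Of 18 alternatives, the Ebf1-H240A call held in only 11 and the Ebf1wt call in 13.

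**Figure D4:**
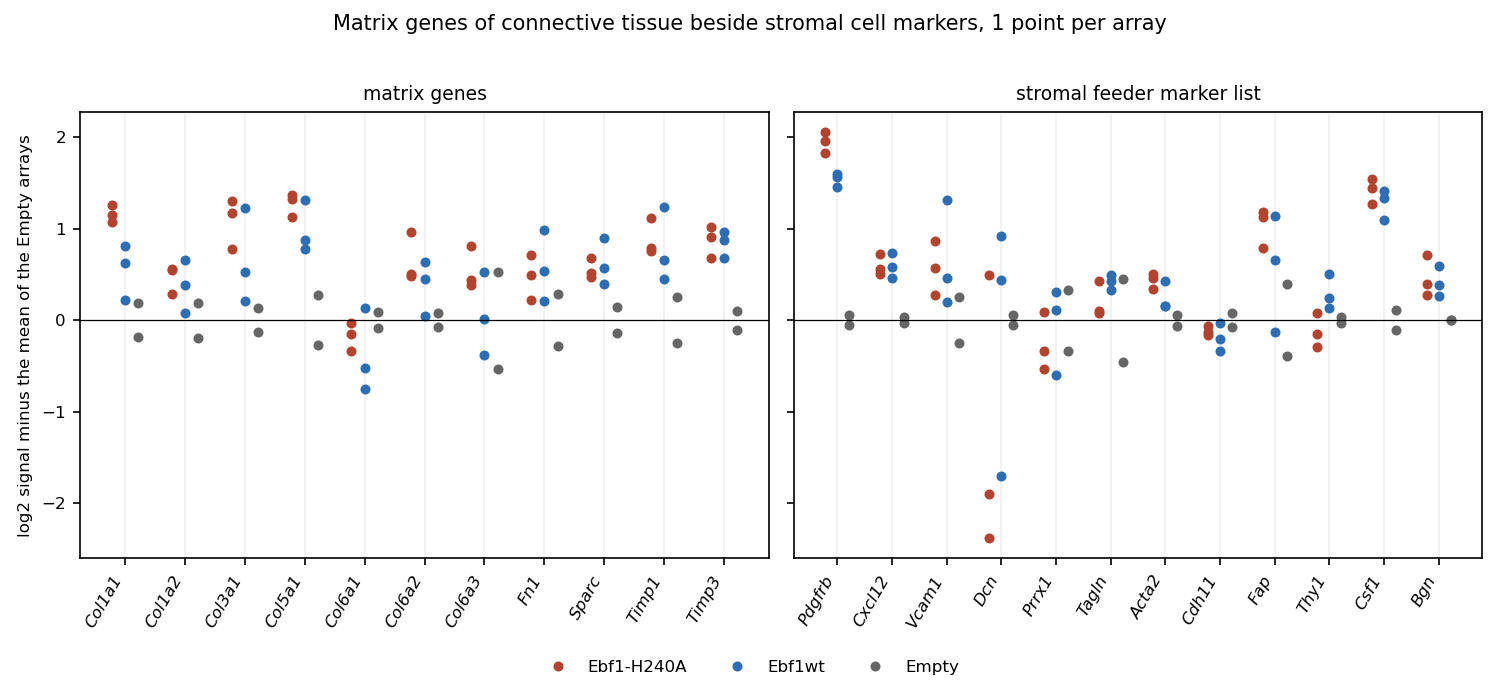
Log2 signal minus the mean of the 2 Empty arrays, 1 point per array, for 11 matrix genes of connective tissue (left) and the 12 measured stromal markers (right), with Ebf1-H240A, Ebf1wt and Empty from left to right at each gene. Pdgfrb and Csf1 lie above 1 on all EBF1 arrays, while the mean differences of Dcn, Prrx1 and Cdh11 are negative with both proteins. In each of these 11 matrix genes, chosen after their values were seen, the highest Ebf1wt point is Ebf1wt 3, as in 32 of all 59.

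Each slide held 1 Empty array and 3 arrays with an EBF1 protein. With the slide as a block the counts were 22 higher and 5 lower with Ebf1-H240A and 16 higher and 3 lower with Ebf1wt against Empty, and 3 higher and 2 lower between the EBF1 proteins. Of all genes, 20.8% and 21.7%, 16.3% and 19.2%, and 2.24% and 1.72% were called higher and lower in these comparisons. Each of the 53 called differences kept its sign in slide 1 and in slide 2, both of which had entered the call. Of them 30 were called in every alternative run, slide-only fits apart, and of the 28 at 2-fold or more 24 were. The other 4 were Col16a1 with Ebf1wt against Empty, Col3a1 with Ebf1-H240A against Empty, and Col17a1 and Mmp11 between the EBF1 proteins.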

How the data were processed

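Total RNA (0.2 ug a sample) was labelled with Cy3 and hybridised to 8 one-colour Agilent arrays. Per the submitters' processing notes, Agilent Feature Extraction 10.5.1.1 made the scanner files. Their deposited processed signal is a linear intensity, per the file headers. The deposited mean and background intensities served the normexp alternative (offset 50). Other deposited columns, per the file headers, are 0 or 1 flags for spots well above background, saturated or outlying. The authors' deposited value table holds log2 values of a normalization and centring not given in the sources used here. Column medians were 4.90 to 4.93, and each column followed the scanner values of its own array (r = 0.987 to 0.992 across genes, which are not independent). The table served as an alternative.

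Processed intensities of 43379 non-control spots were scaled to a common 75th percentile (232 to 326 before scaling), set to at least 1 and put on a log2 scale. Outlier spots were left out and spots averaged to 41174 probes, of which 25007 were well above background on at least 2 of 8 arrays. Of these, 24 without a value on some array were left out, and the brightest remaining probe stood for its gene (16309 genes). Other probes of a gene did not enter the main fit, among them probes of Col1a1, Col1a2 and Col3a1 that did not pass this filter. Names were updated with RefSeq (GRCm38.p6), for 27816 probes through an accession, 5503 through the symbol and 380 through a former symbol, while 7475 kept the file's name. Probe positions are mm9, per the file headers.

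All 8 arrays entered limma 3.58.1 in R 4.3.3 (lmFit, eBayes) with 3 groups and no covariate (5 residual and 1.80 prior degrees of freedom), and p-values were Benjamini-Hochberg adjusted over all genes. The script was tested on simulated data. A fold is a bound where no array of a group rose well above background. The bright group's mean was set against the mean, over the dim group's arrays, of the higher of the probe's signal and the lowest signal well above background on that array. The number of arrays limits the precision.

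The members and lists were chosen with earlier results of these data known. Values per array are given for genes called at 2-fold or more, the 10 brightest, Timp1 to Timp4, Fn1, Sparc and Col26a1. Of the other lists the text names genes among the 3 largest rises and falls. A result among them is not reported here. Col4a1, Col9a2, Col9a1, Mmp2, Mmp19, the further called collagens and the 11 connective tissue genes set beside the stromal markers were named after their values were seen. Alternatives were normexp, quantile normalization, the authors' table, 3 detection rules (all 8 arrays, no filter, a raised floor), the mean over probes, slide and replicate blocks, fits within a slide or of 2 groups, and leaving out each array. The numbers of alternatives given for single genes leave out the fits within a slide. Between the EBF1 proteins, the fit of 2 groups and the fits without either Empty array are the same fit, because a lone Empty array adds no spread. Those numbers therefore count it more than once.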

Additional observations from a re-analysis of the deposited data

How the results depend on the processing

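Against the 22 genes called higher and 5 lower with Ebf1-H240A than with Empty, the 15 and 3 with Ebf1wt, and the 4 and 4 between the EBF1 proteins, the counts moved by over 1.5 times in these settings. The share of all genes called is in brackets, and it moved too. With no filter on dim probes, 13 of 88 members were higher with Ebf1-H240A than with Empty (9.98%). In that setting 1 was lower with Ebf1-H240A than with Ebf1wt (0.549%). With normexp correction 2 were higher with Ebf1-H240A than with Ebf1wt (2.4%). With the slide as a block 2 (1.72%), and with the replicate block 1 (0.932%), were lower with Ebf1-H240A than with Ebf1wt. The replicate block left 17 higher (17.7%) and 5 lower (18.6%) with Ebf1-H240A than with Empty. With Ebf1wt it left 15 (13.8%) and 3 (15.7%). Deviations from the group means correlated at -0.33 to 0.19 over 7 same-numbered pairs and at -0.45 to 0.42 over 14 other pairs between groups. The deviations of the 2 Empty arrays mirror each other, so these few values cannot tell whether the numbers pair arrays. Within slide 1 the counts were 9 higher and 3 lower with Ebf1-H240A, 2 and 0 with Ebf1wt, and 0 and 0 between the proteins, and within slide 2 they were 6 and 0, 5 and 0, and 0 and 0. Each slide fit has 1 residual degree of freedom, and at an unadjusted p under 0.05 the counts between the proteins were 10 and 6 in slide 1 and 7 and 4 in slide 2. Leaving out each array in turn gave 13 to 22 higher and 4 to 6 lower with Ebf1-H240A, 8 to 18 and 3 to 5 with Ebf1wt, and 3 to 4 and 0 to 4 between the proteins. The smallest counts against Empty came without Empty 2, where 16.1% of all genes were called higher with Ebf1-H240A and 12.6% with Ebf1wt. The cause of these shifts was not tested. The direction of Timp4 with Ebf1-H240A against Empty turned with normexp correction (0.06, adjusted p = 0.742), and no other named difference that was called changed sign in an alternative. Normexp correction adds an offset and so shrinks differences of dim probes. The 2 arrays of the Empty group, and probes near the lowest detectable signal, limit what can be told.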
